A study of Mus musculus with 20 samples.

Results

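Expression of the GATA2 variant T354M was compared with expression of wild-type GATA2 in mouse blood progenitor cells that lack a distal enhancer of the Gata2 gene. The comparison used the 4 libraries labelled with the variant and the 4 labelled as rescued with wild-type Gata2, 8 of the 20 RNA-seq libraries of the study, and both groups were taken from the sample titles. Cells of both groups carry the -77 enhancer knockout, a deletion of the element 77 kb upstream of Gata2, and both received a murine stem cell virus (MSCV) retroviral vector, so that the vector and not the gene's own enhancer drives the added protein. For the wild-type GATA2 libraries the labels give lineage-negative progenitors of C57BL/6J fetal liver at E14.5 (days of embryonic development), infected right after isolation and grown for 3 days in medium with fetal serum and conditioned media holding interleukin 3 and stem cell factor. For the T354M libraries they give lineage-negative progenitors of the same knockout and 3 days of culture, and no age, strain, tissue or medium, so a difference in handling and the difference in vector cannot be told apart. The labels say neither whether replicates came from separate animals or cultures nor whether infected cells were sorted, and p-values measure the spread between these libraries. Same-numbered knockout libraries had similar levels of the Y-linked gene Ddx3y, and the reported fit did not pair them. Of the other groups, with 4 libraries each, knockout cells with an empty vector, knockout cells with the variant R307W and wild-type cells with an empty vector are given where they set a level. The R307W labels give no age either, while those of the empty-vector groups give E14.5. T354M against the empty vector thus has the same limit on handling as the main comparison.

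GATA2 is a zinc finger protein that controls genes in the stem and progenitor cells of the blood. Of its pair of fingers the C-terminal one carries most of the binding to the DNA letters GATA. T354M changes a residue of that C-terminal finger and is known as an inherited variant of families with myelodysplasia and acute myeloid leukaemia, whereas R307W changes the N-terminal finger. In the progenitors of the blood GATA2 is known to act with partners such as TAL1, to switch on Gata1, and to be needed for mast cells and basophils, while high levels oppose the neutrophil and lymphoid fates.

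The 8 libraries held 25395555 to 31649662 expected counts, of which the mitochondrial ribosomal RNA mt-Rnr2 took 17.9 to 19.7%. All 8 had the haematopoietic markers Ptprc, Kit and Cd34, with a summed level of 636 to 906 CPM (counts scaled to library size, here by TMM) with T354M and 601 to 906 with GATA2. Hepatocyte markers were present in both groups: Alb, Afp, Apoa1 and Ttr summed to 221 to 1180 CPM with T354M and 223 to 1020 with GATA2, and none was called different. Calls are from the quasi-likelihood test of edgeR over 15835 genes, with 0.05 as the limit of the adjusted p. Values below are CPM in the order of replicates 1 to 4, a log2 difference is T354M minus wild-type GATA2 with its standard error (SE), and a fold is the ratio of the group means. In RNA from a mixed culture, fewer cells of a type and less RNA of a gene per cell cannot be told apart.

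Gata2 itself, on chromosome 6 from 88193891 to 88207032 (GRCm38), had 63.5, 33.6, 37.2 and 73.8 CPM with T354M and 71.0, 76.7, 42.9 and 132 with GATA2. The T354M library was the lower one in each of the 4 same-numbered pairs, but the groups overlapped, since T354M replicates 1 and 4 lay above GATA2 replicate 3. The log2 difference was -0.63 (SE 0.32, edgeR adjusted p = 0.28). A fit with the replicate number as a block over the 16 knockout libraries called it (edgeR adjusted p = 0.011, and 0.011 to 0.91 over all alternatives). In TPM, which also divides by transcript length, the values were 44.7, 20.8, 23.5 and 35.6 for T354M and 30.8, 33.2, 21.4 and 48.2 for GATA2, so that the order of the groups differed between pairs. The transcript length that RSEM assigned to Gata2 was 1550 to 1953 bases in the T354M libraries and 2012 to 2491 in the GATA2 libraries, against 2466 to 2993 with the empty vector. Reads from the vector and from the gene cannot be told apart, and knockout cells with the empty vector had 5.79 ± 1.3 CPM (SD, n = 4). Each result below is thus a difference between cells whose Gata2 counts were 52.0 ± 19.7 with T354M and 80.7 ± 37.3 with GATA2 (SD, n = 4 and 4), and the part of that gap in the other differences was not tested.

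Of the genes tested, 1583 (10%) were called different, 611 higher with T354M (3.86%) and 972 lower (6.14%). Large differences were mostly lower: of the 728 called genes with a fold of at least 2 (4.6%), 173 were higher (1.09%) and 555 lower (3.5%). For 2342 genes (14.8%) all 4 libraries of one group lay beyond all 4 of the other, 1153 higher with T354M (7.28%) and 1189 lower (7.51%). Blocking on the replicate number over the 16 knockout libraries gave 2894 called genes of 15469 tested, 1169 higher and 1725 lower. Of the 1583 called genes, 1540 were among them. Without GATA2 replicate 4 the count was 979, and without replicate 4 of both groups 821, with no change of direction among the genes shared with the full set. In a principal component analysis of the 8 libraries the first axis, with 57.9% of the variance, had all T354M libraries on one side and all GATA2 libraries on the other. GATA2 replicate 3 lay nearest to the T354M libraries on it, and T354M replicate 4 nearest to the GATA2 libraries.

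The stretches of DNA just upstream of 4 genes from either side of the comparison are printed, with any GATA motif marked. These genes were picked by hand and not by a rule, and the most upstream listed start of each was used. The motif was searched as AGATAA or AGATAG or TGATAA or TGATAG on both strands in the 250 bases before each transcript start of RefSeq (GRCm38.p6). Ms4a2, the IgE receptor's beta chain, and Ermap, a membrane protein of red cells, were lower with T354M. Gfi1, a repressor of transcription that acts in the neutrophil line, and Ctsg, the granule protease cathepsin G, were higher. Each sequence is given 5′ to 3′ along the gene's own strand, here the minus strand for all 4, and ends at the base before the start. Capitals mark a match on either strand. The windows are chr19:11623720-11623969 for Ms4a2, chr4:119189996-119190245 for Ermap, chr5:107725806-107726055 for Gfi1 and chr14:56102575-56102824 for Ctsg.
Ms4a2: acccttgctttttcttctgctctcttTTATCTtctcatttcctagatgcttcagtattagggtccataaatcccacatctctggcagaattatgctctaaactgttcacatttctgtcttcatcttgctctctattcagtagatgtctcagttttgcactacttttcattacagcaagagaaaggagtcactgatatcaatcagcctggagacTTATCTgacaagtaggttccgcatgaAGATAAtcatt
Ermap: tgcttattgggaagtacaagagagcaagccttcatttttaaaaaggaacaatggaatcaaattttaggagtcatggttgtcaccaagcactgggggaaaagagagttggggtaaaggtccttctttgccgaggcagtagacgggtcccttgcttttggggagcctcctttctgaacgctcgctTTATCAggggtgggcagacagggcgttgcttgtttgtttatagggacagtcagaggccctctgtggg
Gfi1: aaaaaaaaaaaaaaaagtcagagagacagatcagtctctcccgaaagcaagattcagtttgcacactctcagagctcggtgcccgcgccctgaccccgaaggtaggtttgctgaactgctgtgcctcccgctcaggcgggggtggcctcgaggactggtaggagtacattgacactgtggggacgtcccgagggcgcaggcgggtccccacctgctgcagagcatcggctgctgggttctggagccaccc
Ctsg: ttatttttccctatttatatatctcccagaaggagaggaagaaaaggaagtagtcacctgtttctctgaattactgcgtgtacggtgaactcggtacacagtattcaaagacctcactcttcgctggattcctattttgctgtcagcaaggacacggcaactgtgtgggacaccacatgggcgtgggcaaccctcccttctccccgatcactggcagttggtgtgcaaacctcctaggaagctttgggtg

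The Ms4a2 window held 3 matches, which began 224, 37 and 11 bases before the start, and the Ermap window 1, at 67 bases. Neither the Gfi1 nor the Ctsg window held one. These windows are not typical of the called genes, since most starts of genes called lower held no match and some of genes called higher did. Among all genes tested, 10702 of 15810 symbols had a promoter in the RefSeq table, and 2485 of their 13628 starts (18.2%) held a match. Genes called lower with T354M had 238 of 955 starts with a match (24.9%), and those lower by at least 2-fold 163 of 516 (31.6%). Genes called higher had 108 of 628 (17.2%), and those higher by at least 2-fold 36 of 164 (22%). By gene group, matches stood at 13 of 20 starts of IgE receptor, amine and lipid mediator genes, 6 of 10 of mast cell protease genes and 17 of 32 of erythroid genes, against 0 of 10 of azurophil granule genes and 7 of 17 of late neutrophil granule genes. Groups with genes called lower could also have few matches, with 0 of 8 starts of MAP kinase feedback genes and 1 of 13 of cholesterol genes, and the dendritic cell group, with few calls, had 8 of 18. These shares are descriptions of letters in a window, given with no test, and over all 32851 starts of the table, tested genes or not, 8718 (26.5%) held a match.

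Of the 25 gene groups described, mast cell and basophil proteases had the lowest median difference. Of 11 tested members 9 fell with T354M and none rose, their median log2 difference was -4.58 against 0.02 over all genes tested, and for 7 of them all T354M libraries lay below all GATA2 libraries. That median is the value of Mcpt2, a gene with few counts. The summed protease level was 486 CPM on average with T354M and 1950 with GATA2, against 534 in wild-type cells with the empty vector. Mcpt2, Mcpt4, Tpsab1 and Tpsb2 had too few counts for a value in the block over the 16 knockout libraries, in which 6 proteases fell. Mcpt8, a protease made by basophils, had 57.7, 30.6, 44.9 and 91.5 CPM with T354M and 679, 571, 255 and 1070 with GATA2. No T354M library came near the lowest GATA2 library, replicate 3. The difference was 11.5-fold (log2 -3.52, SE 0.41, edgeR adjusted p = 2.23e-05). Prss34, another basophil protease, had 101, 17.9, 23.7 and 195 CPM with T354M and 547, 507, 296 and 913 with GATA2 and fell 6.71-fold (edgeR adjusted p = 0.0102). Gzmb, granzyme B, fell 21.5-fold, from 11.3 to 48.6 CPM over the GATA2 libraries to 0.425 to 2.74 with T354M (edgeR adjusted p = 0.000231).

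The tryptases and chymases, stored in mast cell granules, were close to absent with T354M. Cma1, a chymase, had 0.419, 0.0772, 0 and 0.483 CPM with T354M and 23.5, 11.9, 1.31 and 37.8 with GATA2, 76.1-fold lower (edgeR adjusted p = 0.000256). Both groups spread widely, and still the lowest GATA2 library stood above the highest T354M library. The tryptase Tpsb2 had 5 counts over the 4 T354M libraries, all of them in replicate 4 (0.161 CPM), and 1296 counts over the GATA2 libraries, at 9.38, 4.98, 0.337 and 30.6 CPM. Its log2 difference was -7.87 (SE 1.20, edgeR adjusted p = 0.000438), -6.66 without GATA2 replicate 4 and -11.22 without T354M replicate 4, so its size rests on those libraries. Tpsg1, a tryptase anchored in the membrane, had 0.0349 to 0.129 CPM with T354M and 4.37, 3.04, 0.412 and 17.5 with GATA2 (edgeR adjusted p = 0.00014). Tpsab1, a near-identical neighbour of Tpsb2 whose reads RSEM may divide between them, had no counts with T354M and 167 with GATA2, which makes it at least 57.3-fold lower when the T354M group is set to a floor of 3 counts in total. For Mcpt4 there was 1 count with T354M against 157, a ratio of 162 with an exact 95% counting interval of 28.6 to 6430. Mcpt2 was called as well, at 6 against 155 counts, but not without GATA2 replicate 4, and the Mcpt genes are similar enough to share reads.

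Cpa3, the mast cell carboxypeptidase, was the protease with the smallest difference. It had 413, 145, 228 and 589 CPM with T354M and 719, 594, 343 and 1040 with GATA2. T354M was lower in each same-numbered pair, by a log2 difference of -0.97 (SE 0.37, edgeR adjusted p = 0.122), which passed the test with the block over the knockout libraries (edgeR adjusted p = 0.0153, and 0.0153 to 0.422 over all alternatives). The level with T354M was far above that of the empty vector, 13 CPM on average.

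**Figure D1:**
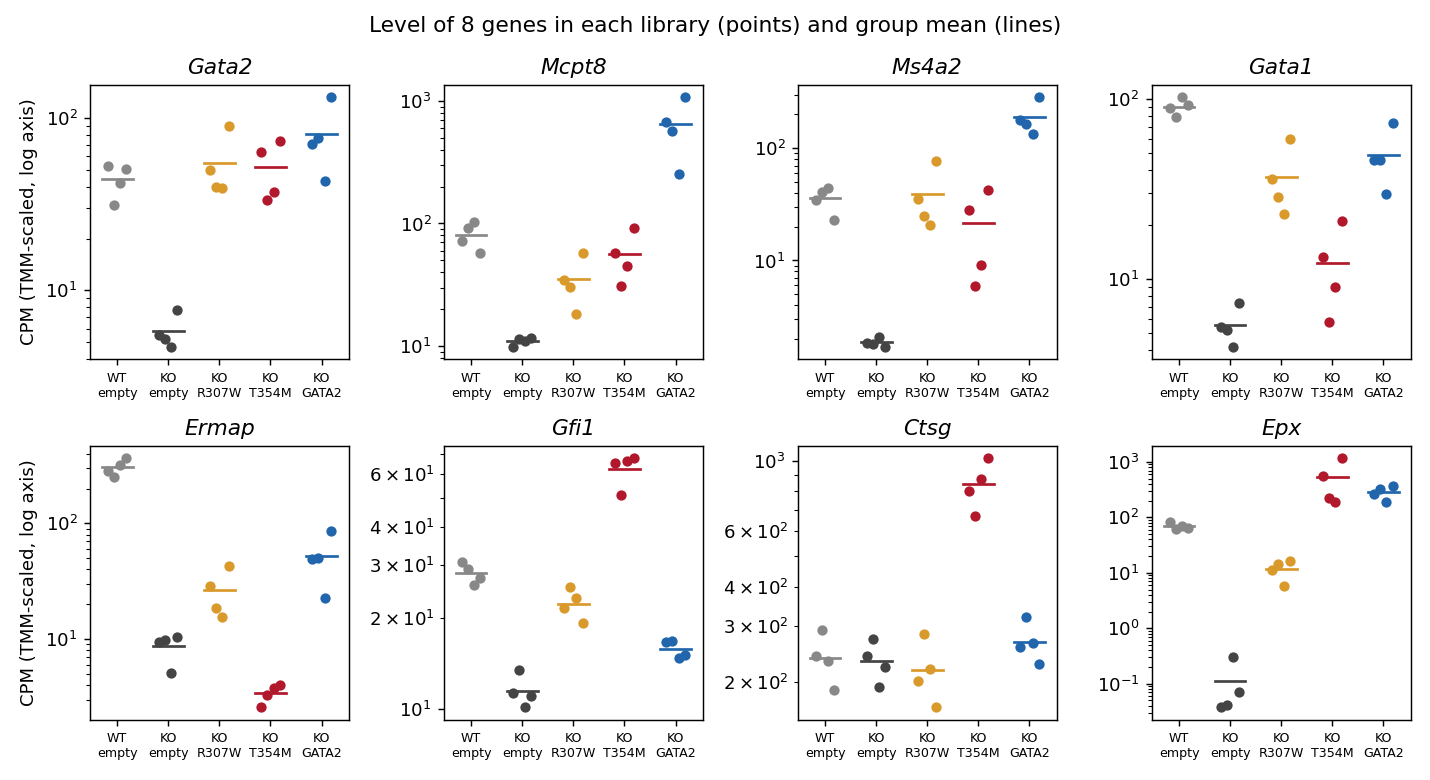
Levels of 8 genes in each library of the 5 groups, as TMM-scaled CPM on a log axis, with points for libraries and lines for group means. Mcpt8, Ms4a2, Gata1 and Ermap are lower in all 4 T354M libraries than in any GATA2 library, Gfi1 and Ctsg are higher, and Gata2 and Epx overlap.

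Genes of the IgE receptor, of amine storage and of lipid mediators, the equipment with which mast cells and basophils sense and release, mostly fell with T354M. Of 19 tested 15 fell and none rose, with a median log2 difference of -1.90, and for 12 of the 15 no T354M library reached the lowest GATA2 library. The summed level of this list was 983 CPM on average with T354M and 2340 with GATA2, against 967 in wild-type cells with the empty vector. Fcer1a, the IgE-binding chain of the receptor, had 5.62, 4.95, 2.55 and 9.36 CPM with GATA2. With T354M it had 3 counts over the 4 libraries, none of them in replicate 2, against 628 counts with GATA2. The ratio was 216 with an exact 95% counting interval of 73.4 to 1050 (edgeR adjusted p = 4.79e-06). Ms4a2, the beta chain whose promoter is printed above, had 28.4, 5.94, 9.05 and 42.2 CPM with T354M and 180, 163, 133 and 284 with GATA2, 8.88-fold lower (edgeR adjusted p = 0.00036). Fcer1a was thus close to absent with T354M, while a low level of Ms4a2 was measured in all 4 libraries. Lat2, an adaptor in the signalling of that receptor, stayed within 26.1 to 29.6 CPM with T354M, against 76.9, 73.9, 58.0 and 95.9 with GATA2 (2.72-fold, edgeR adjusted p = 1.64e-06), and the related adaptor Lat fell 3.73-fold (edgeR adjusted p = 0.000205).

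Tph1, which makes serotonin in mast cells, had 0, 0.0772, 0.0361 and 0.0644 CPM with T354M and 7.45, 4.57, 0.825 and 23.3 with GATA2, 204-fold lower (edgeR adjusted p = 6.18e-05). The T354M libraries held 5 counts in all. Hdc, which makes histamine, had 418, 223, 309 and 586 CPM with T354M and 570, 508, 280 and 914 with GATA2. These groups overlapped and Hdc was not called (log2 -0.57, SE 0.28, edgeR adjusted p = 0.27). The transporter Slc18a2, which loads amines into vesicles, fell 3.51-fold (edgeR adjusted p = 0.00955).

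The receptors and mediators of the same list, named here after their values were seen, moved as follows. Il1rl1, the receptor of interleukin 33, had 41.2, 8.88, 14.7 and 70.5 CPM with T354M and 402, 284, 174 and 647 with GATA2, 11.1-fold lower (edgeR adjusted p = 0.000299). Cd200r3, an activating receptor of basophils and mast cells, fell 10.6-fold (edgeR adjusted p = 0.000502) and Il6, a cytokine they secrete, 9.66-fold (edgeR adjusted p = 0.00026). In all 3 the replicate order was the same, with T354M replicate 4 high and replicate 2 low among the T354M libraries. The leukotriene enzyme gene Alox5 fell 2.92-fold (edgeR adjusted p = 0.0184), a call lost without GATA2 replicate 4 or T354M replicate 3. Il4, Il13 and Alox5ap were called with adjusted p between 0.0184 and 0.0409 in edgeR, and each of them lost the call in 4 to 6 of the 8 fits that left out 1 library.

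Eosinophil genes went in both directions. Epx, eosinophil peroxidase, had 567, 223, 186 and 1170 CPM with T354M and 265, 327, 193 and 362 with GATA2, so T354M held both the highest and the lowest library. It was not called (log2 0.90, SE 0.43, edgeR adjusted p = 0.232), and the log2 difference was 0.16 without T354M replicate 4. The major basic protein genes Prg2 and Prg3 had group means of 1830 ± 1520 and 169 ± 121 CPM with T354M and 2050 ± 484 and 159 ± 26.1 with GATA2 (SD, n = 4 and 4), and neither was called. Siglecf, a lectin receptor of eosinophils, had 111, 80.2, 99.5 and 175 CPM with T354M and 48.1, 56.4, 42.3 and 53.8 with GATA2, 2.32-fold higher with no overlap (edgeR adjusted p = 0.000342). Il5ra, the interleukin 5 receptor chain, was called 2.03-fold higher (edgeR adjusted p = 0.0226), with T354M replicate 2 at 28.8 CPM below GATA2 replicates 1 and 2, and lost the call without any of GATA2 replicates 1, 3 or 4 or T354M replicates 1 or 4. The chemokine receptor Ccr3 and the ribonucleases Ear1 and Ear2 fell. Ear2 had 19.2, 9.11, 4.87 and 38.0 CPM with T354M and 85.5, 84.5, 39.2 and 94.9 with GATA2 (4.28-fold, edgeR adjusted p = 0.00821), with a log2 difference of -2.80 in place of -2.09 without T354M replicate 4. Ear1 lost its call without GATA2 replicate 4 or without T354M replicate 1, 2 or 3. Ear1 and Ear2 are near-identical, so the share of reads of each is uncertain. Over the 10 eosinophil genes tested 2 rose and 3 fell, with a median log2 difference of -0.39.

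Among 20 haematopoietic cytokine receptor genes 2 rose and 4 fell, with a median log2 difference of -0.005 over the list. Those that rose were Il5ra and Csf2ra, and neither was called without GATA2 replicate 1 or 4 or without T354M replicate 4. Csf2rb, the common beta chain of the receptors of interleukin 3, interleukin 5 and GM-CSF, had 376, 361, 301 and 465 CPM with T354M and 874, 848, 630 and 1220 with GATA2. It fell 2.38-fold (edgeR adjusted p = 0.000301), and its near-copy Csf2rb2, the chain specific to interleukin 3, 4.07-fold (edgeR adjusted p = 0.00516), with reads that the copies may share. Il7r, the interleukin 7 receptor, had 4.16, 5.44, 5.19 and 3.54 CPM with T354M and 28.6, 23.2, 11.4 and 42.2 with GATA2, 5.75-fold lower (edgeR adjusted p = 2.23e-05). The T354M libraries lay close together while the GATA2 libraries spanned a wide range. Kit, the receptor of the stem cell factor in the medium, had 94.5 to 105 CPM with T354M and 70.4 to 122 with GATA2 and was not called (log2 0.02, SE 0.13, edgeR adjusted p = 0.97).

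Erythroid genes fell broadly with T354M. Of 36 tested 23 fell and 1 rose, with a median log2 difference of -1.36, and for 22 of the 23 no T354M library reached the lowest GATA2 library. Over the alternatives 18 to 26 were called lower. The summed erythroid level was 1100 CPM on average with T354M and 1800 with GATA2, both far below the 10600 of wild-type cells with the empty vector. Ermap, whose promoter is printed above, had 2.58, 3.32, 3.82 and 4.06 CPM with T354M and 49.0, 50.5, 22.5 and 85.8 with GATA2, 15.1-fold lower (edgeR adjusted p = 3.73e-06). Car1, a carbonic anhydrase of early red cells, had 1.78, 0.618, 0.865 and 2.06 CPM with T354M and 17.9, 17.0, 9.97 and 35.5 with GATA2, 15.1-fold lower (edgeR adjusted p = 1.04e-05). For both, every T354M library was far under the lowest GATA2 library, replicate 3. Rhag, a partner of the Rh blood group proteins, fell 9.65-fold, from 6.30 to 22.1 CPM over the GATA2 libraries to 0.978 to 1.98 with T354M (edgeR adjusted p = 5.43e-06).

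The erythroid members sort by role. Epor, the erythropoietin receptor, had 1.19, 0.772, 0.793 and 1.26 CPM with T354M and 6.05, 7.34, 3.41 and 15.3 with GATA2 and fell 8.0-fold (edgeR adjusted p = 0.000178). Klf1, the erythroid Krüppel-like factor, fell 9.74-fold (edgeR adjusted p = 5.52e-05). Among the surface and skeleton proteins, chosen here after their values were seen, Kel fell 16.7-fold, Ank1 9.43-fold and Aqp1 9.0-fold (edgeR adjusted p = 5.74e-05, 6.33e-05 and 3.17e-05). Among enzymes of haem synthesis Cpox fell 2.92-fold (edgeR adjusted p = 5.96e-05) and Urod 1.59-fold (edgeR adjusted p = 0.00464), while the call of Fech, 1.34-fold lower, was lost without GATA2 replicate 4 or T354M replicate 1. Alas2, the first enzyme of haem synthesis in red cells, was called 5.03-fold lower (edgeR adjusted p = 0.0185), but not without GATA2 replicate 4 or T354M replicate 1 or 3. Genes of the last stages of red cell maturation were not called. Hbb-bs had 14.3, 43.7, 31.7 and 62.7 CPM with T354M and 23.4, 52.2, 37.7 and 97.4 with GATA2 (edgeR adjusted p = 0.741), and Slc4a1, the anion exchanger, had a log2 difference of -0.62 (SE 0.49, edgeR adjusted p = 0.56). The globin genes are near-copies whose reads may be shared. Slc25a37, a mitochondrial iron carrier, was the one that rose, 1.65-fold (edgeR adjusted p = 0.00086).

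GATA2's own network of factors was split. Gata1, the GATA factor that follows GATA2 in red cells and mast cells, had 13.2, 5.71, 8.98 and 21.0 CPM with T354M and 45.5, 45.8, 29.6 and 73.5 with GATA2. It fell 3.98-fold (edgeR adjusted p = 0.000835), with every T354M library under every GATA2 library. Gfi1b, a repressor of transcription that acts in the red cell and platelet lines, had 9.78, 4.40, 8.40 and 14.9 CPM with T354M and 27.5, 31.4, 19.7 and 60.8 with GATA2 (3.72-fold lower, edgeR adjusted p = 0.0024). Tal1, a partner of GATA factors on DNA, fell 1.97-fold (edgeR adjusted p = 0.000581). Zfpm1, the cofactor FOG1, had 9.78, 4.94, 7.68 and 16.2 CPM with T354M and 13.6, 15.9, 10.8 and 33 with GATA2, lower in 4 of 4 pairs but not called (edgeR adjusted p = 0.232). Blocking on the replicate over the knockout libraries made it a call (edgeR adjusted p = 0.00271, and 0.00271 to 0.708 over all alternatives).

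Erg and Myb, factors of stem and progenitor cells, went up. Erg had 33.7, 29.4, 39.4 and 39.7 CPM with T354M and 21.3, 15.6, 18.4 and 18.6 with GATA2 (1.92-fold, edgeR adjusted p = 0.000269), and Myb rose 1.62-fold, from 306 to 392 CPM to 449 to 669 (edgeR adjusted p = 0.000507). For both, the groups did not overlap. Of the 14 tested genes of GATA factors and partners these 2 rose and Gata1 and Tal1 fell, with a median log2 difference of -0.20. With the block over the knockout libraries 7 fell, and without GATA2 replicate 3 it was 5. Over all genes those fits called 1725 of 15469 and 1138 of 16142 lower.

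Of 21 megakaryocyte genes 5 fell and none rose, with a median log2 difference of -0.52. Plek, an adaptor of platelet signalling, had 156, 216, 197 and 153 CPM with T354M and 290, 292, 278 and 286 with GATA2, 1.59-fold lower (edgeR adjusted p = 0.00419). Gp5, a chain of the platelet receptor for von Willebrand factor, fell 2.66-fold, from 4.57 to 7.54 CPM to 1.5 to 3.17 (edgeR adjusted p = 0.00522). In neither gene did the groups overlap. The count was 2 without GATA2 replicate 4 and 3 without GATA2 replicate 1 or T354M replicate 1.

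**Figure D2:**
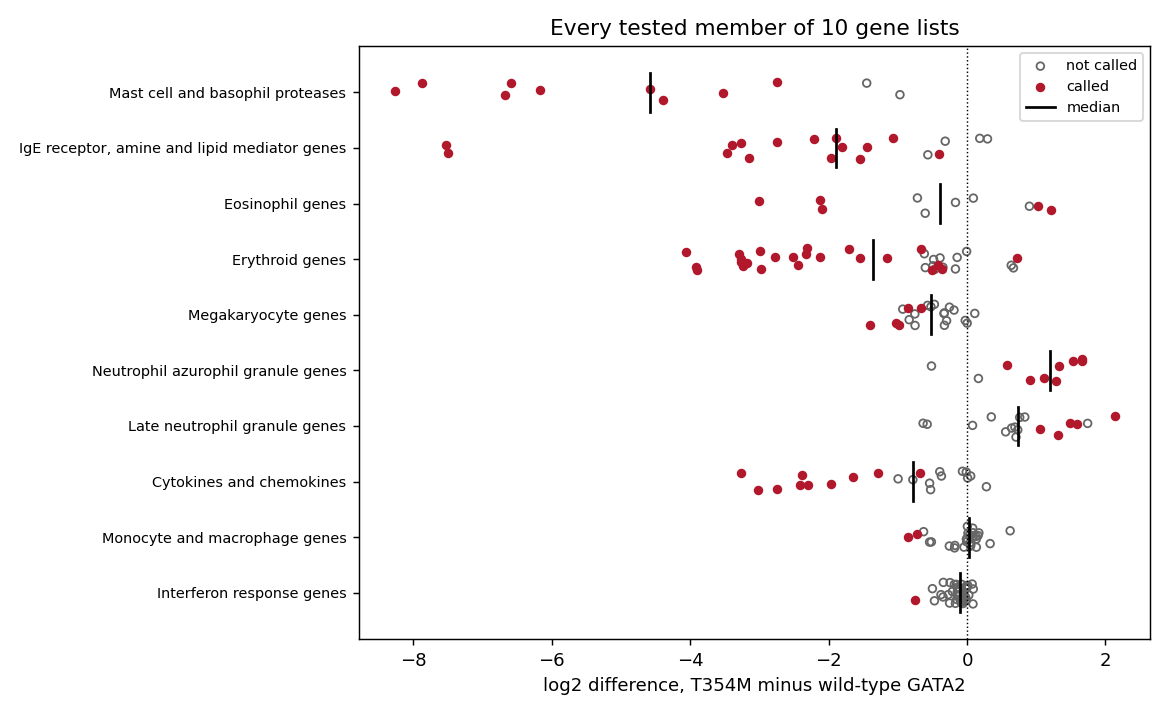
Log2 difference of every tested member of 10 gene groups, T354M minus wild-type GATA2, with filled points for called genes and a line at each group's median. Mast cell protease members reach far below 0 and azurophil granule members lie above it, with medians of -4.58 and 1.20, and the lowest protease point, Tpsab1, is a fitted value from 0 counts with T354M.

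Most azurophil and some late neutrophil granule genes rose with T354M. Among 10 tested genes of azurophil granules, the stores that form in promyelocytes, 8 rose and none fell, with a median log2 difference of 1.20 and no overlap between groups for those 8. The summed level of the 10 was 8430 CPM on average with T354M and 4300 with GATA2, against 3020 in wild-type cells with the empty vector. Ctsg, whose promoter is printed above, had 805, 667, 877 and 1020 CPM with T354M and 257, 321, 265 and 227 with GATA2, 3.15-fold higher (edgeR adjusted p = 6.75e-06). Even the lowest T354M library lay far above the highest GATA2 library. Prss57, a serine protease of the same granules, had 79.2, 62.9, 85.0 and 118 CPM with T354M and 26.8, 38.5, 27.3 and 26.6 with GATA2 (2.90-fold, edgeR adjusted p = 2.26e-05). Elane, neutrophil elastase, rose 3.16-fold (edgeR adjusted p = 2.98e-05), Prtn3, proteinase 3, 2.51-fold (edgeR adjusted p = 0.00221) and Mpo, myeloperoxidase, 2.43-fold (edgeR adjusted p = 5.04e-05). Mpo had 4140, 3650, 4620 and 5720 CPM with T354M and 1570, 2230, 1970 and 1680 with GATA2. The neutrophil markers Mpo, Elane, Ltf and Camp together summed to 3960 to 6010 CPM with T354M and 1660 to 2350 with GATA2.

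Of genes of the later granules 5 of 17 rose and none fell, with a median log2 difference of 0.73. The summed level of the 17 was 4070 CPM on average with T354M and 2810 with GATA2. Both were below the 6270 of knockout cells and the 11700 of wild-type cells with the empty vector. Ngp, neutrophilic granule protein, had 116, 212, 94.0 and 213 CPM with T354M and 32.9, 49.3, 30.0 and 32.7 with GATA2, 4.38-fold higher (edgeR adjusted p = 0.00148). Itgb2l, an integrin chain of neutrophils, had 12.9, 17.6, 7.25 and 16.3 CPM with T354M and 4.23, 6.92, 3.67 and 3.08 with GATA2 (3.02-fold, edgeR adjusted p = 0.00702). For Itgb2l the groups come close, with T354M replicate 3 just above GATA2 replicate 2. The count of this group was 3 without GATA2 replicate 1 or 4 or without T354M replicate 2 or 4, and 1 without replicate 4 of both groups. Ltf and Camp lost their calls in 5 and 3 of the 8 fits without 1 library. Whether the azurophil and the late group differ from each other was not tested.

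Gfi1, the transcriptional repressor whose promoter is printed above, had 65.1, 50.9, 66.2 and 67.7 CPM with T354M and 16.6, 16.7, 14.7 and 15.1 with GATA2. The GATA2 libraries lay close together and T354M replicate 2 was below the other T354M libraries, with no overlap of the groups. The 3.96-fold rise had the smallest adjusted p among the genes named here (log2 1.98, SE 0.11, edgeR adjusted p = 6.33e-09). Cebpe, the C/EBP factor of late granulocyte stages, rose 2.70-fold (edgeR adjusted p = 0.0057). Cebpa, the C/EBP factor of the earlier granulocyte and monocyte progenitor, had 84.3, 66.7, 82.6 and 99.5 CPM with T354M and 71.6, 68.6, 65.9 and 88.8 with GATA2 (edgeR adjusted p = 0.523), and Spi1, which encodes PU.1, had 62.2 to 88.0 and 46.3 to 69.6 CPM (edgeR adjusted p = 0.134). Of 22 myeloid lineage factor genes Gfi1 and Cebpe rose, and Klf1, Gfi1b, Nfil3 and Bcl11a fell. Nfil3, a factor of innate lymphoid cells and basophils, had 16.7, 20.5, 15.4 and 15.7 CPM with T354M and 51.7, 42.8, 29.3 and 56.8 with GATA2 (2.64-fold lower, edgeR adjusted p = 2.23e-05).

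**Figure D3:**
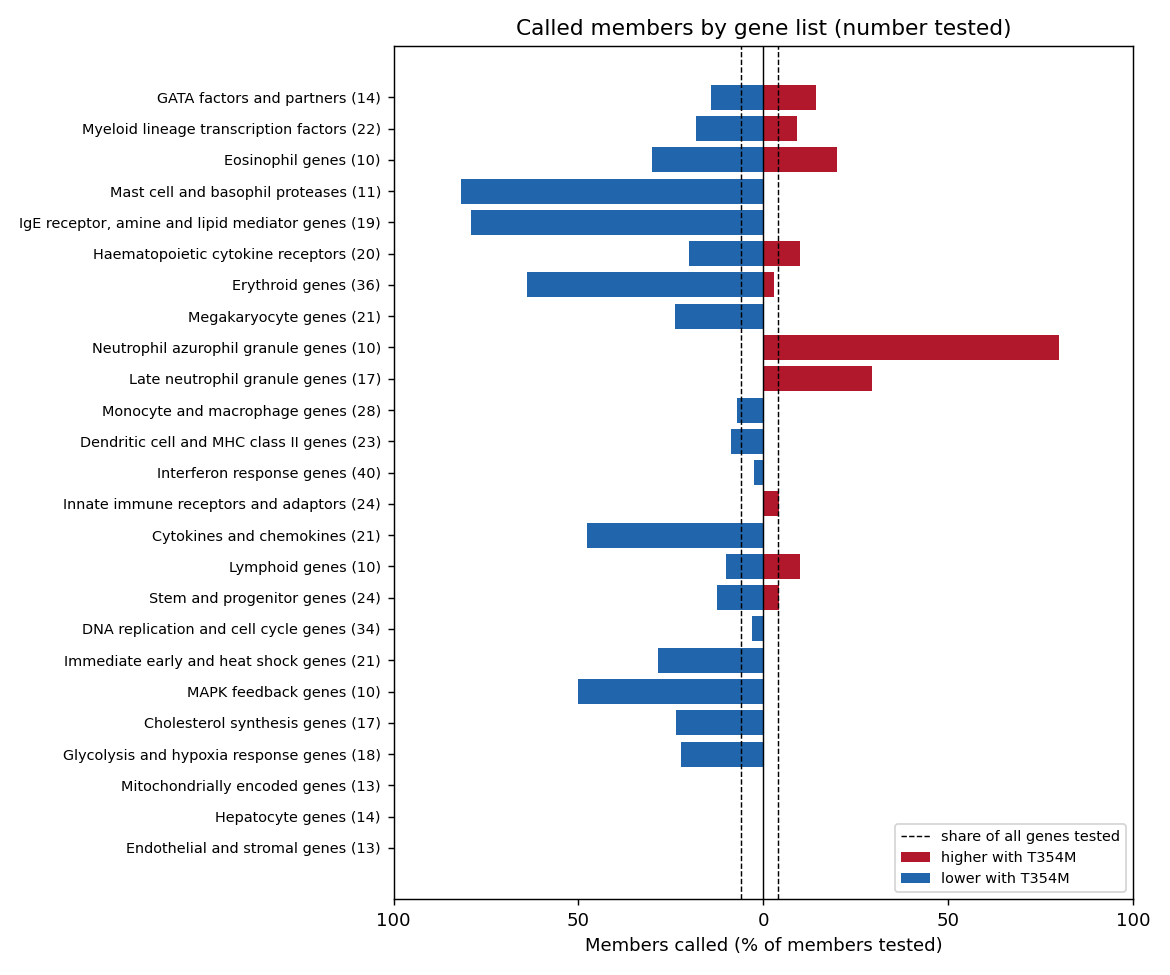
Percent of the tested members of each gene group called higher (right, red) or lower (left, blue) with T354M than with wild-type GATA2. The dashed lines mark the shares over all genes tested, 3.86% higher and 6.14% lower, and erythroid and mast cell groups extend far left while azurophil granule genes extend right.

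Among the 10 genes with the highest log2 differences, several have no place in the lists. The 10 were taken from called genes with at least 5 CPM in a group and no overlap of libraries, the limits for naming. Over all genes tested the log2 differences ran from -9.71 to 6.93. Cftr, a chloride channel of epithelia, had 8.49, 7.41, 4.72 and 5.51 CPM with T354M and 0.537, 0.799, 0.862 and 0.446 with GATA2, 9.88-fold higher (edgeR adjusted p = 2.94e-06). In the other groups its mean was 0.238 to 1.04 CPM. Dio2, a deiodinase that activates thyroid hormone, had 25.3, 17.9, 23.5 and 33.9 CPM with T354M and 5.44, 7.23, 4.65 and 4.28 with GATA2 (4.66-fold, edgeR adjusted p = 2.39e-06). Both genes were separated between groups without overlap. Mgam, a maltase, rose 4.36-fold (edgeR adjusted p = 5.12e-06), the nucleoside transporter Slc28a2 3.73-fold (edgeR adjusted p = 1.64e-06), the ubiquitin ligase adaptor Klhl3 3.51-fold (edgeR adjusted p = 5.91e-05) and the tight junction gene Cldn15 3.49-fold (edgeR adjusted p = 1.64e-06). Vcam1, an adhesion molecule, had 16.8, 7.91, 7.61 and 12.7 CPM with T354M and 4.98, 3.80, 1.91 and 2.60 with GATA2 (3.39-fold, edgeR adjusted p = 0.000905), and the sphingosine phosphate receptor S1pr3 rose 3.28-fold (edgeR adjusted p = 0.000256).

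Within the same limits for naming, the lowest log2 differences outside the lists were those of Dnase2b, Car8, Gnai1 and Slc26a3. Dnase2b, an acid nuclease, had 0.0698, 0, 0.144 and 0.612 CPM with T354M and 6.59, 4.83, 2.02 and 11.5 with GATA2 (30.2-fold, edgeR adjusted p = 0.000101). Slc26a3, an anion exchanger, had 0.489, 0.193, 0.144 and 1.06 CPM with T354M and 10.4, 9.59, 4.39 and 12.1 with GATA2 (19.3-fold, edgeR adjusted p = 6.33e-05). Both had T354M replicate 4 as the highest of its group, still well below GATA2 replicate 3. Car8, a relative of the carbonic anhydrases, fell 22.8-fold (edgeR adjusted p = 0.000145) and Gnai1, a G protein subunit, 22.3-fold (edgeR adjusted p = 0.000232). Without GATA2 replicate 4 their log2 differences were -3.62 and -3.54 in place of -4.48 and -4.46.

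Few monocyte, dendritic cell and interferon genes were called, 7.14, 8.7 and 2.5% of those tested, against 10% over all genes tested. Of 28 monocyte and macrophage genes 2 fell, 2 of 23 genes of dendritic cells and MHC class II did, 1 of 40 interferon response genes did, and none of these genes rose, with median log2 differences of 0.02, 0.08 and -0.11. Irf8, a factor of monocytes and dendritic cells, had 36.4, 63.1, 38.9 and 13.6 CPM with T354M and 31.9, 40.6, 63.6 and 13.3 with GATA2 (edgeR adjusted p = 0.993). In both groups replicate 4 was the lowest. The same holds for Ifit3, an interferon-induced gene, with 9.70 CPM in T354M replicate 4 and 7.78 in GATA2 replicate 4 against 25.5 to 41.9 in the other 6 libraries (edgeR adjusted p = 0.97), while Bst2 and the integrin gene Itgax were not called either, with log2 differences of 0.07 and 0.12. Zbtb46, a factor of classical dendritic cells, fell 4.61-fold, from 2.47 to 7.44 CPM to 0.629 to 1.58 (edgeR adjusted p = 0.000107). Emilin2 and F10, of the monocyte list, fell 1.80-fold and 1.64-fold (edgeR adjusted p = 0.00218 and 0.00784), with groups that meet at GATA2 replicate 3. H2-Oa lost its call without GATA2 replicate 4 or without T354M replicate 1, 2 or 3, and Isg20 in 5 of the 8 fits without 1 library, so neither of these calls is stable. Trem3, a receptor of myeloid cells, was the one of 24 innate receptor genes that rose, 2.49-fold (edgeR adjusted p = 0.00162).

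Among 21 genes of cytokines, chemokines and their receptors 10 fell with T354M and none rose, with a median log2 difference of -0.78. Of the 10, Ccr1 encodes a chemokine receptor and not a secreted factor. Osm, oncostatin M, had 6.84, 7.99, 6.45 and 9.60 CPM with T354M and 54.2, 79.0, 34.7 and 82.7 with GATA2, 8.11-fold lower (edgeR adjusted p = 2.94e-06). Ccl6, a chemokine of myeloid cells, had 41.2, 41.1, 31.7 and 51.0 CPM with T354M and 118, 143, 91.5 and 163 with GATA2 (3.13-fold, edgeR adjusted p = 5.15e-05). Neither gene overlapped between groups. Further members, named after their values were seen, were Ccl3, 5.32-fold lower (edgeR adjusted p = 5.38e-05), Csf1, the growth factor of macrophages, 4.95-fold (edgeR adjusted p = 0.00116), and Ccl9, 2.44-fold (edgeR adjusted p = 5.91e-05).

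Some of the genes that respond quickly to growth factor signals fell too. Of 21 immediate early and heat shock genes 6 fell and none rose, and of 10 feedback genes of the MAP kinase pathway 5 fell and none rose, with median log2 differences of -0.18 and -0.52. Egr3 had 0.943, 1.20, 1.05 and 0.419 CPM with T354M and 5.95, 5.06, 3.37 and 6.48 with GATA2 (5.79-fold lower, edgeR adjusted p = 8.67e-05), and Egr1 7.40, 7.45, 6.17 and 6.15 against 40.2, 32.1, 22.6 and 59.0 (5.66-fold, edgeR adjusted p = 0.000274). All T354M libraries of both were far under GATA2 replicate 3. The phosphatase genes Dusp5 and Dusp6, which switch ERK off, fell 3.54-fold and 1.94-fold (edgeR adjusted p = 9.53e-05 and 0.000273). Heat shock members were not among the 6, which were Egr1, Egr2, Egr3, Ier3, Jund and Btg2.

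A minority of the metabolic genes fell. Hmgcs1 and Fdft1, enzymes of cholesterol synthesis, fell 1.45-fold and 1.42-fold (edgeR adjusted p = 0.00067 and 0.000889), with 89.5 to 98.9 CPM against 122 to 147 for Hmgcs1. Over the 17 cholesterol genes 4 fell and none rose, 11 fell with the block over the knockout libraries, and 7 without GATA2 replicate 3. Those 2 fits also called more genes lower over all genes tested, 1725 of 15469 and 1138 of 16142, against 972 of 15835 in the reported fit. Slc2a3, a glucose transporter, had 47.9, 41.0, 45.6 and 48.9 CPM with T354M and 161, 114, 78.5 and 152 with GATA2 (2.75-fold lower, edgeR adjusted p = 0.000256). Of 18 glycolysis and hypoxia genes 4 fell, 9 with the block, 8 without GATA2 replicate 3 and 2 without GATA2 replicate 1 or 4 or T354M replicate 3. Hk1, a hexokinase, fell 1.63-fold (edgeR adjusted p = 0.014) but lost the call without GATA2 replicate 4 or T354M replicate 1.

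In the cell cycle list 1 of 34 genes was called, the inhibitor Cdkn1b, 1.33-fold lower (edgeR adjusted p = 0.0227), a call lost without any of GATA2 replicates 1 or 4 or T354M replicates 1 or 3. With the block over the knockout libraries 6 fell, beside 1725 of all 15469 genes tested in that fit. Among 24 stem and progenitor genes Meis1, a homeobox factor, fell 1.54-fold (edgeR adjusted p = 0.00249) and Slamf1, a stem cell surface receptor, 2.53-fold (edgeR adjusted p = 0.0056), while Tek was called lower and Igf2bp3 higher. Leaving out 1 library kept the call of Tek in 4 of 8 fits and that of Igf2bp3 in 1 of 8. With the block 5 of this list rose in place of 1, beside 1169 of all 15469 genes tested in that fit. Of the 10 lymphoid genes tested Tcf7, a T cell factor, rose 2.45-fold, with 2.74 to 6.15 CPM against 1.51 to 2.15 (edgeR adjusted p = 0.00594), and Il7r fell. No mitochondrially encoded, hepatocyte, endothelial or stromal gene was called, of 13, 14 and 13 tested (edgeR, with 2, 0 and 0 at an unadjusted p under 0.05, and none by DESeq2). The replicate block over the knockout libraries called 1 mitochondrial gene higher and 1 endothelial or stromal gene lower, the block over the 8 libraries 1 mitochondrial gene higher, 2 lower and 1 endothelial or stromal gene lower. Without T354M replicate 4, 1 endothelial or stromal gene was called lower.

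The difference between the variants was read from T354M against R307W, which shares the T354M libraries with the main comparison. It gave 553 called genes (3.49%), 189 higher with T354M (1.19%) and 364 lower (2.3%). Erythroid genes were again lower with T354M, 16 of 36, and none was higher. Ermap had 3.45 ± 0.65 CPM with T354M and 26.4 with R307W on average (log2 -2.94, SE 0.37, edgeR adjusted p = 0.000135), Car1 1.33 against 8.14 (edgeR adjusted p = 0.0009) and Kel 1.54 against 41.8 (edgeR adjusted p = 5.25e-05). Gata1 had 12.2 against 36.7 CPM (edgeR adjusted p = 0.0118) and Gfi1b 9.37 against 25.0 (edgeR adjusted p = 0.0409). Each of these 5 genes was also called lower with T354M than with wild-type GATA2.

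Mast cell proteases showed another pattern. Mcpt8 had 56.2 ± 26.0 CPM with T354M and 35.3 with R307W on average, not called apart (log2 0.67, SE 0.38, edgeR adjusted p = 0.556), and both were far below the 644 of GATA2. Cpa3 had 344 against 105 CPM and was higher with T354M (log2 1.72, SE 0.38, edgeR adjusted p = 0.0132). Fcer1a went the other way, with 2.00 CPM with R307W and 3 counts in all with T354M (edgeR adjusted p = 0.000135). Epx had 536 CPM with T354M and 11.9 with R307W (log2 5.49, SE 0.52, edgeR adjusted p = 5.42e-06), while Ear2 had 17.8 against 270 (log2 -3.92, SE 0.53, edgeR adjusted p = 0.000231). Eosinophil genes thus differed between the variants in both directions.

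Neutrophil genes were higher with T354M than with R307W as well: 5 of 10 azurophil and 3 of 17 late granule genes, and none lower. Gfi1 had 62.5 ± 7.82 against 22.3 CPM (log2 1.48, SE 0.11, edgeR adjusted p = 3.6e-07), and Ctsg 843 ± 149 against 218 (log2 1.95, SE 0.17, edgeR adjusted p = 2.87e-06). Mgam, Klhl3 and Vcam1 did not pass this test, with log2 differences of 0.25, -0.26 and 0.23 and SEs of 0.20, 0.22 and 0.30. R307W against wild-type GATA2, which shares the GATA2 libraries with the main comparison, gave 274 called genes (1.73%), 93 higher (0.587%) and 181 lower (1.14%). In it 9 of 11 proteases and 5 of 19 IgE receptor, amine and lipid mediator genes fell, as did 1 of 36 erythroid genes, Car2. Gfi1 and 2 of 10 azurophil genes, Mpo and Elane, rose with R307W too, and 0 of 17 late granule genes did. Among cytokine and chemokine genes 5 of 21 fell, Osm, Lif, Ccl3, Ccl6 and Ccl9. Egr2, Egr3 and Ier3 fell among 21 immediate early and heat shock genes, and Dusp6 and Etv5 among 10 MAP kinase feedback genes.

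**Figure D4:**
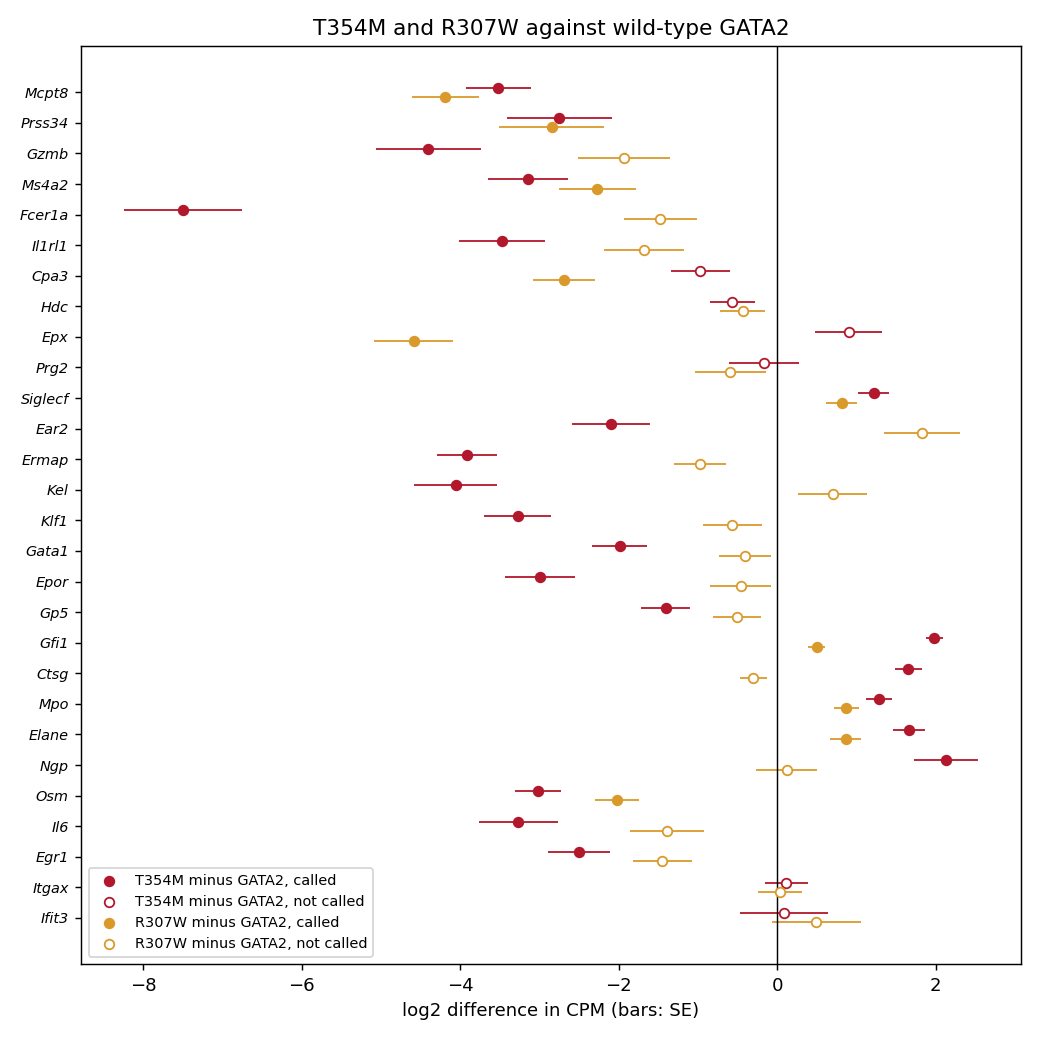
Log2 differences with their SE for 28 genes, T354M minus GATA2 and R307W minus GATA2, with filled points for called genes. The comparisons share the GATA2 libraries, and the erythroid genes lie lower for T354M while Epx lies lower for R307W.

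Set against the empty vector in knockout cells, T354M still changed 2751 genes (17.4%), 1467 higher (9.26%) and 1284 lower (8.11%), and GATA2 3042 (19.2%), 1738 higher (11%) and 1304 lower (8.23%). These comparisons share the empty-vector libraries, and their values are given side by side. Eosinophil genes rose with both, 9 of 10 with T354M and 10 of 10 with GATA2. Interferon response genes fell with both, 35 of 40 and 30 of 40. Mast cell proteases rose for 3 of 11 with T354M, Mcpt8, Cpa3 and Prss34, and for 10 of 11 with GATA2. Of 36 erythroid genes 2 rose and 17 fell with T354M, while 19 rose and 3 fell with GATA2. Ermap had 8.70 CPM with the empty vector, above the 3.45 of T354M (log2 -1.34, edgeR adjusted p = 0.0179) and below the 52.0 of GATA2 (edgeR adjusted p = 5.8e-05). Azurophil genes rose for 9 of 10 with T354M and for 3 of 10 with GATA2, where 1 fell. Of 17 late neutrophil granule genes 1 rose, Pglyrp1, and 1 fell with T354M, while 2 rose and 11 fell with GATA2. Ltf, Camp, Ngp and Itgb2l, called higher with T354M than with GATA2, were among those 11 and were not called with T354M against the empty vector.

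In the groups with most genes lower, the GATA2 libraries mostly stood in the same order. GATA2 replicate 3 was the lowest GATA2 library for 9 of 9 proteases, 15 of 15 IgE receptor, amine and lipid mediator genes and 23 of 23 erythroid genes called lower, and GATA2 replicate 4 the highest for 9, 14 and 23 of them. Other groups differed: GATA2 replicate 1 was the highest for 3 of 4 glycolysis and hypoxia genes and 2 of 4 cholesterol genes called lower, and replicate 3 the lowest for 3 of 6 immediate early genes. Gata2 itself was lowest in replicate 3 of the GATA2 libraries, at 42.9 CPM, and highest in replicate 4, at 132. The summed erythroid list also had replicate 3 lowest and replicate 4 highest in other knockout groups. It had 1120, 1210, 1050 and 1740 CPM with the empty vector and 1520, 1410, 1320 and 2210 with R307W. With T354M it was lowest in replicate 2, and the protease sum with the empty vector was lowest in replicate 1. Whether the order goes with Gata2 or with the replicate was not tested. GATA2 replicate 3 lay above all 4 T354M libraries for 7 of the 9 proteases, 12 of the 15 mediator genes and 22 of the 23 erythroid genes.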

How the data were processed

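RNA-seq gene tables of 20 libraries were used, 8 of them for the comparison of T354M with wild-type GATA2. Total RNA was taken through a NuGEN Ovation protocol, per the labels. The tools listed are STAR 2.5.2b and RSEM 1.3.0 with the mm10 build, per the submitters' processing notes. Whether counting used the strand is not given in the sources used here, so genes that overlap on opposite strands are uncertain. The deposited expected counts are RSEM's estimates of reads per gene, in which a read that fits several genes is divided among them. The deposited TPM were scaled by the authors to transcript length and library total, and served for 1 alternative and for Gata2. Symbols were looked up in GENCODE M21 (GRCm38) for 53379 identifiers and found for 53274, and promoters came from RefSeq (GRCm38.p6).

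Expected counts were rounded to whole numbers, filtered with filterByExpr, scaled by TMM and fitted in edgeR 4.0.16 (R 4.3.3) with 5 group means over all 20 libraries, a common dispersion of 0.0468 and 15 residual degrees of freedom. Adjustment was by Benjamini-Hochberg over 15835 genes, and an SE is the log2 difference divided by the square root of F. Totals of 25395555 to 31649662 counts set the precision. Counting intervals (exact, 95%) and the floor of 3 counts cover counting error only. The script was tested on simulated counts.

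Members and the 25 gene lists (492 genes) were chosen with earlier results of these data known. Named genes were Gata2, the 10 highest and 10 lowest log2 differences among called genes with at least 5 CPM in a group and no overlap of libraries (predicted, ribosomal, mitochondrial, small RNA and pseudogene symbols left out), the 2 members of lowest adjusted p of each list with a call, and a fixed set given whatever its result (Gata1, Zfpm1, Spi1, Cebpa, Irf8, Gfi1b, Epx, Mcpt8, Cpa3, Hdc, Ms4a2, Kit, Car1, Itgax, Bst2 and Ifit3). Other members named were picked after their values were seen. Some list members and 1 marker check are not reported here.

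Replicate numbers were taken to pair the groups, since same-numbered deviations from the group means correlated at 0.364, 0.158, 0.300 and 0.551. T354M replicate 2 correlated more with GATA2 replicate 3 (0.302). The Y-linked gene Ddx3y had 8.10, 51.2, 54.7 and 0 CPM over T354M replicates 1 to 4 and 7.63, 46.0, 52.5 and 0 over GATA2. It had 7.19, 53.0, 53.0 and 0 over R307W and 7.52, 52.4, 53.2 and 0 over the empty vector in knockout cells. Same-numbered knockout libraries were thus alike in this gene, while wild-type cells had 45.1, 141, 0 and 45.8. The reported fit has no replicate block, and the pairing enters only the block alternatives. Alternatives were DESeq2 size factors, no filter, the DESeq2 1.42.0 Wald test, limma 3.58.1 on log2(TPM + 1), replicate blocks, the 8 libraries alone, no mitochondrial genes, a fold of at least 2, and leaving out libraries.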

Additional observations from a re-analysis of the deposited data

Results flagged for a closer look

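In 8 of 144 groups of 4 libraries, for the 72 named genes in the T354M and GATA2 groups, 1 library stood apart on the CPM scale, its gap to the nearest library over the group's range being above Dixon's 95% critical value. Chance gives about 1 such group in 20. With T354M, replicate 4 was high for Tpsb2 (0.161 CPM, the others at 0), Tpsg1 (0.129 CPM), Car8 (1.32 CPM) and Hk1 (60.7 CPM), and replicate 2 was low for Fcer1a (0.0 CPM) and Gfi1 (50.9 CPM, the others at 65.1 to 67.7). With GATA2, replicate 2 was high for Ngp (49.3 CPM) and Prss57 (38.5 CPM). Tpsb2, Fcer1a and Tpsg1 had at most 7 counts over the T354M group.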

How the results depend on the processing

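Of 1583 called genes, none changed direction among those shared with any alternative, and 48 to 62 of the 72 named genes were called against 60 in the reported fit. Leaving out each library gave 979 to 1679 called genes, 384 to 541 higher and 595 to 1138 lower, with the lowest counts without GATA2 replicate 4 and the highest without GATA2 replicate 3. Without replicate 4 of both groups there were 821 (276 higher and 545 lower). The replicate block, with the pairing of the numbers over 16 knockout libraries, gave 2894 (1169 higher and 1725 lower), over the 8 libraries 2038, and over 12 libraries of replicates 1 to 3, an alternative added after seeing the data, 1760. No filter on low counts left 390 higher, 29.2% of calls in place of 38.6%, among 39706 genes tested. Limma on log2(TPM + 1) left 590 lower and 46.1% higher. A fold of at least 2 kept 728 (173 higher and 555 lower). For these alternatives other than the fewer libraries and the fold limit, the cause was not tested. DESeq2 size factors, the DESeq2 Wald test, the 8 libraries alone and no mitochondrial genes gave 1582, 1874, 1147 and 1586. Over all alternatives 4 to 10 proteases, 10 to 16 IgE receptor, amine and lipid mediator genes and 18 to 26 erythroid genes were called lower and 6 to 8 azurophil genes higher, with 4 proteases from the 8 libraries alone. Eosinophil genes called lower ranged from 1 to 5 and late neutrophil genes called higher from 1 to 9. Tpsb2 did not pass the count filter of the replicate block fits, which gave it no value. In the block over 16 knockout libraries Mcpt2, Mcpt4 and Tpsab1 had no value either. Among the other named genes blocking changed no call beside those of Gata2, Zfpm1, Cpa3, Spi1 and Isg20. Depth limits Tpsb2, Fcer1a and Tpsg1, with 5, 3 and 7 counts over the T354M group, whose fold depends on single counts.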

Other observations

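Next in order of size, among genes that met the limits for naming, were further genes outside the lists, chosen after their values were seen. Lin28a, an RNA-binding protein of the fetal blood programme, had 27.0, 21.3, 26.0 and 34.9 CPM with T354M and 9.31, 9.28, 8.88 and 7.13 with GATA2, 3.16-fold higher with no overlap (edgeR adjusted p = 1.56e-05). B4galt6, a glycolipid enzyme, Hsd11b1, which activates glucocorticoids, Gatm, of creatine synthesis, and Olr1, a scavenger receptor, were higher as well, with log2 differences of 1.71, 1.62, 1.57 and 1.55 (edgeR adjusted p = 2.39e-06, 0.000115, 1.64e-06 and 1.33e-05).

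On the lower side, Add2, the beta chain of adducin in the red cell skeleton, had 1.54, 1.66, 2.99 and 3.06 CPM with T354M and 33.3, 34.1, 14.2 and 58.0 with GATA2, 15.1-fold lower (edgeR adjusted p = 5.37e-06). Sytl3, a vesicle protein, fell 18.7-fold (edgeR adjusted p = 1.06e-05) and the amino acid transporter Slc38a5 15.8-fold (edgeR adjusted p = 1.52e-05). In knockout cells with the empty vector their means were 4.48, 0.335 and 1.06 CPM.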
